A study of Mus musculus with 6 samples.

Results

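Eph receptors are the largest family of receptor tyrosine kinases, and the clusters described here are those of NOVA1 and NOVA2 on the transcripts of 8 of its members, Epha3, Epha4, Epha5, Epha6, Epha7, Ephb1, Ephb2 and Ephb3. The data were lists of HITS-CLIP clusters, that is, stretches of RNA that had been fixed to the protein with ultraviolet light, pulled down with its antibody and sequenced. The cortex came from wild-type CD1 mice at embryonic day 18.5, and each protein had 3 libraries, with no mutant, treated or input sample. A tag is a unique sequenced RNA fragment, and each list gives 1 tag count per cluster, pooled over the 3 libraries, for clusters of at least 10 tags. A cluster was taken as a receptor cluster when it overlapped the annotated span of the gene (GENCODE vM1, mm9) with 1 nt or more on its own strand. By this rule 213 of the 46579 clusters lay in the receptors, 25 of 9988 for NOVA1 and 188 of 36591 for NOVA2. Because the libraries were pooled, there is no value per replicate, and the differences below carry no replicate error and no test was made. Intervals are 95% intervals for counting error only, Wilson intervals for shares and exact intervals for ratios of tags. The tags were not scaled to the size of the libraries, and NOVA2 had more unique tags than NOVA1 in the totals the study gives. By immunostaining the study also reports high levels of NOVA2 in cortex and low levels of NOVA1. The lists say nothing of how much of each receptor RNA was present.

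Eph receptors on one cell bind ephrins anchored in the membrane of its neighbour, and signalling can run into both cells. EphA receptors mainly bind ephrin-A ligands, which hold to the membrane by a lipid anchor, and EphB receptors mainly bind the transmembrane ephrin-B ligands. In the developing cortex this contact steers growing axons, most often by repulsion, and helps to set up topographic maps, cell migration and synapses. The NOVA proteins bind RNA in neurons, where they direct the choice of alternative exons and also act on 3' UTRs. Both bind the tetramer YCAY, where Y is a pyrimidine (in DNA letters CCAC, and the same with T for the C at either end or at both ends).

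Sequence from the NOVA2 intron cluster of most tags in each receptor is shown first, since intron clusters make up nearly all of the NOVA2 binding to this family. Each line gives the window of 30 nt with the most YCAY starts inside the cluster, read 5' to 3' on the strand of the gene from the mm9 genome, with YCAY in capitals and T for U.
Epha3 intron 3, chr16:63766420-63766449, minus strand: CCACaTCATCATagTCACctaTCACCATct
Epha4 intron 4, chr1:77426261-77426290, minus strand: CCATgttTCATttccccctTCATCACacaa
Epha5 intron 2, chr5:84774674-84774703, minus strand: atatgtgctgtgtttctcTCATCCATTCAT
Epha6 intron 5, chr16:60164968-60164997, minus strand: TCATtTCACtagtttccagcaatacattgc
Epha7 intron 5, chr4:28822164-28822193, plus strand: cCCATgtacctgTCACttCCACtgtaTCAT
Ephb1 intron 3, chr9:102058547-102058576, minus strand: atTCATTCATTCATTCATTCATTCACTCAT
Ephb2 intron 9, chr4:136224850-136224879, minus strand: TCATacaagccaagtaacattTCATgcaag
The windows of Epha3 and Ephb1 held 6 and 7 YCAY starts, in Ephb1 as a run of repeats, while those of Epha6 and Ephb2 held 2. A window with at least 4 starts was present in 22.3% of the 175 NOVA2 intron clusters of the receptors (16.8 to 29.0) and in 24.5% of all NOVA2 intron clusters. A window with at least 1 was present in 98.9% and 99.6%. Windows were picked for their YCAY and not counted in flanks, so they do not give the position of contact within a cluster. At least 2 starts in a window were present in 92.0% of the NOVA2 intron clusters of the receptors (87.0 to 95.2) and in 58.3% of their 12 NOVA2 3' UTR clusters (32.0 to 80.7), beside 92.3% and 77.8% in the whole list. Among the 3' UTR clusters of most NOVA2 tags in each receptor, the best window held 4 starts in Epha5 and in Epha3, 3 in Ephb1 and 1 in Epha4 and in Epha7. Those of Epha5, the strongest site of the family, and of Epha3, whose tag counts differ from the other 3' UTRs, are shown.
Epha5 3' UTR, chr5:84495041-84495070, minus strand: CCACtgtctTCACtCCATccctTCATgtaa
Epha3 3' UTR, chr16:63545088-63545117, minus strand: TCACTCACagtctgaatatcCCATTCATtt

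NOVA2 clusters were found in 7 of the 8 receptors and NOVA1 clusters in 5, against 22.7% and 12.7% of the 22380 protein-coding genes. Receptor genes are long, and of the 2401 protein-coding genes of 100 kb or longer 66.6% held a NOVA2 and 40.9% a NOVA1 cluster. Epha5, an ephrin-A receptor, held the most clusters in both lists, 57 for NOVA2 with 2315 tags and 10 for NOVA1 with 448 tags. Epha3 followed for NOVA2 with 41 clusters and 1149 tags, but had only 3 NOVA1 clusters with 34 tags. Epha6, the longest gene of the family at 952 kb, held 26 NOVA2 clusters with 547 tags and none of NOVA1. Epha7, another ephrin-A receptor, held 19 NOVA2 clusters with 649 tags and 3 NOVA1 clusters with 48 tags. Epha4, which binds ligands of both classes and guides corticospinal axons at the midline, held 9 NOVA2 clusters with 176 tags and 5 NOVA1 clusters with 86 tags.

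Among the receptors for ephrin-B ligands, Ephb1 stood out, with 32 NOVA2 clusters and 753 tags and 4 NOVA1 clusters with 50 tags. Ephb2 held 4 NOVA2 clusters of 43, 17, 12 and 11 tags and no NOVA1 cluster. Ephb3, which acts with Ephb2 in the guidance of commissural axons, held no cluster in either list. It is also much the shortest of these genes, at 18.6 kb. Of the 17539 protein-coding genes shorter than 50 kb, 13.2% held a NOVA2 cluster. The 6 other Eph receptors of the mouse, Epha1, Epha2, Epha8, Epha10, Ephb4 and Ephb6, span 14.8 to 36.9 kb and also held none, so the receptors with clusters are the long genes. A list that starts at 10 tags cannot tell weak binding from none, nor low binding from low RNA.

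**Figure D1:**
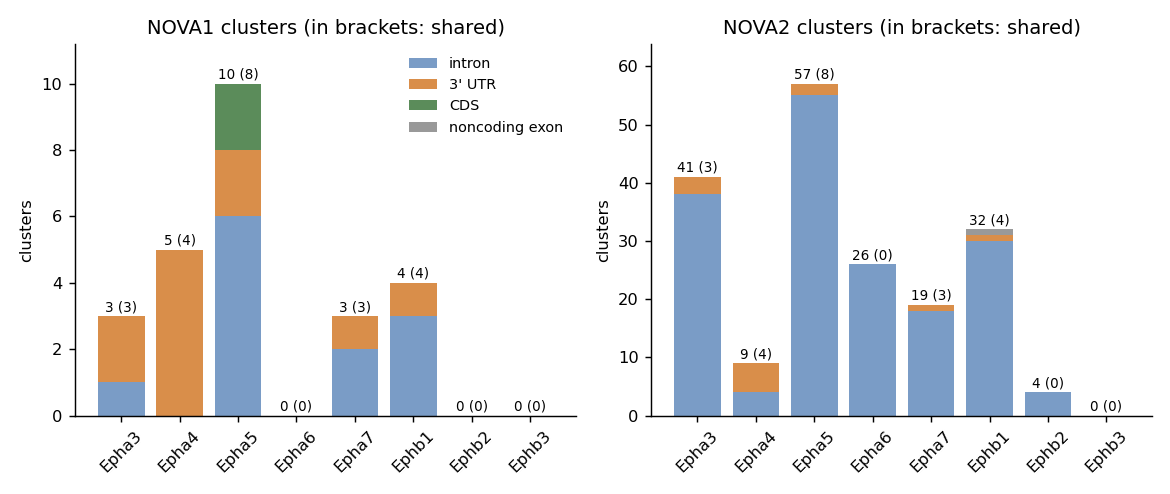
Number of clusters per receptor (vertical axis, separate scales) in the NOVA1 list (left) and the NOVA2 list (right), coloured by the annotation class that covers most of the cluster. Over each bar stand the number of clusters and, in brackets, the number that overlap a cluster of the other list. Epha5 holds 10 NOVA1 and 57 NOVA2 clusters, and 3' UTR clusters make up all 5 NOVA1 clusters of Epha4.

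Counted per length, the order changed. Epha5 held 15.5 NOVA2 intron clusters per 100 kb of intron, Epha7 12.2 and Epha3 12.1. Ephb1 held 7.01, Epha4 2.83, Epha6 2.74 and Ephb2 2.25 per 100 kb. Epha5, Epha3 and Epha7 had more NOVA2 clusters per length of gene than 97.8%, 95.9% and 95.3% of the genes of 100 kb or longer. Epha6 and Ephb2 lay nearer the middle of these genes, above 63.4% and 58.4%. For NOVA1 the densest receptor was Epha4, above 94.2% of the long genes, with Epha5 next at 92.4%.

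The question put to the 2 lists was whether both proteins bound the same places in the receptors, in introns and in 3' UTRs. NOVA2 binding to the family was almost wholly intronic. Of the 188 NOVA2 clusters, 175 (93.1%, 88.5 to 95.9) lay in introns and 12 (6.38%, 3.69 to 10.8) in 3' UTRs, beside 83.9% and 13.6% of the 32533 NOVA2 clusters that lie within genes (74.6% and 12.1% of the whole list, which also holds clusters between genes). The remaining cluster, of 13 tags, lay in a noncoding exon of Ephb1. NOVA1 binding was divided between introns and 3' UTRs. Of the 25 NOVA1 clusters, 12 (48.0%, 30 to 66.5) lay in introns, 11 (44.0%, 26.7 to 62.9) in 3' UTRs and 2 in coding sequence, beside 45.6% and 42.7% in introns and 3' UTRs among the 8827 NOVA1 clusters within genes (40.3% and 37.7% of the whole list). In tags the contrast was wider, because the 3' UTR of Epha5 dominates the NOVA1 counts. Of the 666 NOVA1 tags, 71.0% lay in 3' UTRs and 24.6% in introns, and of the 5672 NOVA2 tags 12.8% and 87.0%. The NOVA1 3' UTR tags include 313 from a single Epha5 cluster, whose midpoint lies in annotated coding sequence. Classed by its midpoint, that cluster would leave the 3' UTR share. Epha5 alone carried 67.3% of the NOVA1 tags and 40.8% of the NOVA2 tags of the family. Without Epha5, 91.6% of 131 NOVA2 clusters were intronic. Of the 15 NOVA1 clusters then left 40% were intronic and 60% in 3' UTRs, so the order of the NOVA1 shares turns without Epha5.

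Most NOVA1 sites in the receptors were NOVA2 sites as well, while few NOVA2 sites were NOVA1 sites. Of the NOVA1 clusters 22 of 25 (88.0%, 70.0 to 95.8) coincided with a NOVA2 cluster, beside 80.1% of the whole NOVA1 list. Of the NOVA2 clusters 22 of 188 (11.7%, 7.86 to 17.1) overlapped a NOVA1 cluster, beside 22.1% of the whole NOVA2 list. All 12 NOVA1 intron clusters were shared. Of the NOVA2 intron clusters 12 of 175 (6.86%, 3.97 to 11.6) were shared, beside 14.1% of all NOVA2 intron clusters, and of the NOVA2 3' UTR clusters 10 of 12 (83.3%, 55.2 to 95.3), beside 64.5%. The share of NOVA2 intron clusters was higher at higher minimums of NOVA2 tags. At 25 or more tags 12 of 53 receptor intron clusters (22.6%, 13.5 to 35.5) were shared and 34.7% of all such intron clusters. At 50 or more tags it was 10 of 23 (43.5%, 25.6 to 63.2) and 60.6%. For introns the whole-list share lay above the interval of the receptors at 10 tags and inside it at 25 and at 50 tags. Over clusters of every class it lay above the interval at 25 tags too, 44.4% beside 28.8% (18.8 to 41.4).

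**Figure D2:**
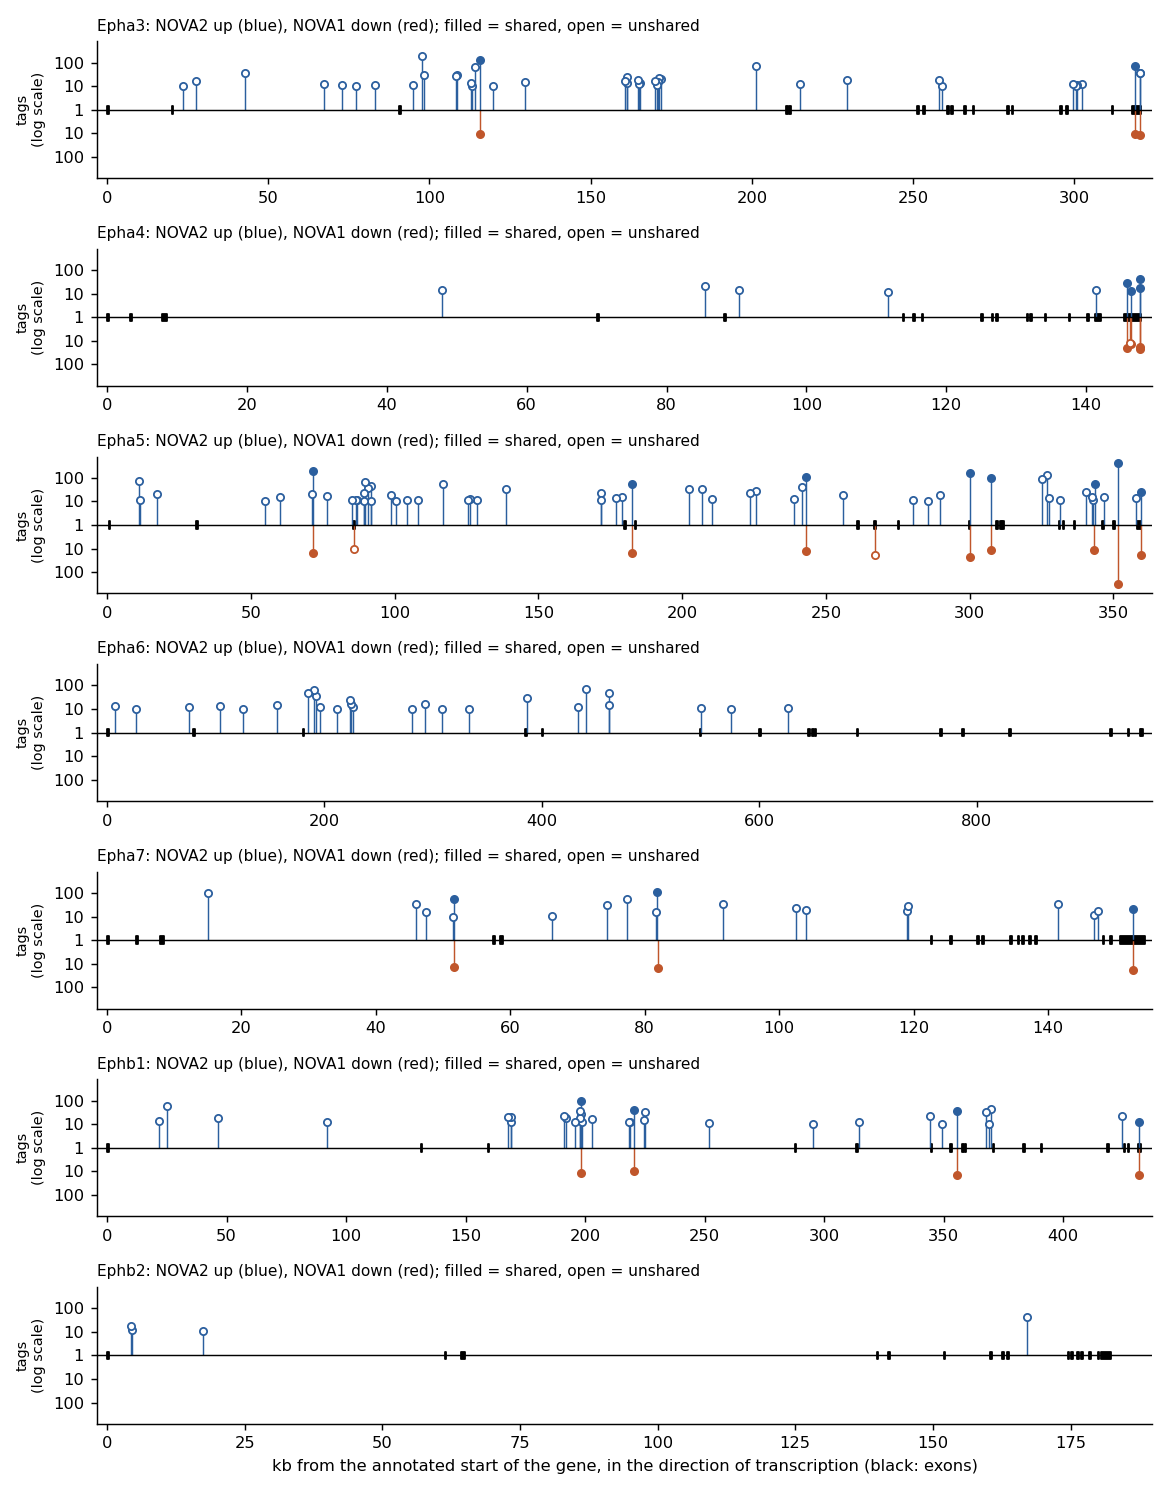
Position of every cluster in the 7 receptors with clusters, in kb from the annotated start of the gene in the direction of transcription (horizontal axis, a scale for each gene), with NOVA2 tags upward and NOVA1 tags downward on a log scale from 1. Filled points overlap a cluster of the other list, open points do not, and black marks are exons of the longest coding transcript. NOVA2 points run through the long introns, NOVA1 points gather at the 3' ends and at a few intron sites, and Epha6 and Ephb2 hold NOVA2 points only.

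The 22 shared sites formed 22 pairs of 1 NOVA1 and 1 NOVA2 cluster, 12 in introns of 4 receptors and 10 in 3' UTRs of 5. In introns NOVA2 had more tags, unscaled, at each of the 12 pairs, and NOVA1 had more at 2.03% of all 3452 intron pairs. At the 10 3' UTR pairs NOVA1 had more tags at 2, beside 32.2% of all 2146 3' UTR pairs. On the log2 scale NOVA1 over NOVA2 tags had a median of -2.86 at the intron pairs (range -3.75 to -1.32) and -0.41 at the 3' UTR pairs (range -2.67 to 0.22). Over all genes the medians were -2.04 and -0.40. The difference between the medians of 3' UTR and intron pairs was 2.45 on the log2 scale (0.42 to 3.27). Without Epha5 it was 2.15 (-1.35 to 3.81, on 8 and 6 pairs), a range that spans both signs. Unlike the other intervals, these bounds join the rank limits of each median over its pairs. The tag ratios hold for the counts as listed. When each count was divided by the unique tag total of its protein, every ratio rose by the same amount, and the medians became -1.51 in introns and 0.94 in 3' UTRs, with the difference of 2.45 between them kept. NOVA1 was then higher at 1 of 12 intron pairs, beside 24.7% of all intron pairs, and at 8 of 10 3' UTR pairs, beside 84.9% of all 3' UTR pairs. So the sign of the 3' UTR ratios depends on the scaling. A pair needs 10 NOVA1 tags to be listed, so the lowest ratios are out of reach at sites of few NOVA2 tags.

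The intron pairs of Epha5 had 11, 12, 13, 15, 15 and 22 NOVA1 tags, against 53, 96, 112, 56, 202 and 153 NOVA2 tags at the same sites. The widest gap was in intron 2 (chr5:84774596-84774912), where NOVA2 had 202 tags and NOVA1 15, a ratio of 13.5 (7.97 to 24.5). In Epha3 the single intron pair had 132 NOVA2 and 11 NOVA1 tags, a ratio of 12 (6.49 to 24.6). The next lowest NOVA1 share was in intron 5 of Epha5, with 112 and 13 tags, a ratio of 8.62 (4.84 to 16.7). The sequence of that NOVA1 cluster has 30 further copies in the genome. Epha7 had 56 NOVA2 and 14 NOVA1 tags in intron 3, and 114 and 15 in intron 5. Ephb1 had 40 and 10 tags, and 95 and 12, at its pairs in intron 3, and 35 and 14 in intron 7, the intron pair with the most even counts. The Ephb1 intron 7 site is a dense run of YCAY, with 16 in the 112 nt of the NOVA1 cluster, and that sequence has 5 further copies in the genome.

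In 3' UTRs the unscaled counts of both proteins lay nearer to each other in 4 of the 5 receptors. Epha4 had NOVA1 counts of 19, 22, 13 and 20 tags at pairs where NOVA2 had 17, 42, 13 and 28. Epha7 had 19 NOVA1 and 21 NOVA2 tags at its one 3' UTR pair, and Ephb1 14 and 12. Epha5 had 18 and 24 tags at the end of its last exon and 313 and 415 at its strongest site. At 3 of these 8 pairs the counts of NOVA1 were equal or higher, 19 against 17 and 13 against 13 in Epha4 and 14 against 12 in Ephb1, and for each the interval of the unscaled ratio includes equality. Scaled to the tag totals, NOVA1 was higher at all 8 of these pairs, by 0.42 to 1.57 on the log2 scale. The widest of the 8 as listed was the Epha4 pair of 22 and 42 tags, with 1.91 NOVA2 tags per NOVA1 tag (1.11 to 3.36).

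Epha3 was the receptor whose 3' UTR differed from this pattern. At its pairs NOVA1 had 12 and 11 tags where NOVA2 had 36 and 70, ratios of NOVA2 to NOVA1 of 3 (1.53 to 6.33) and 6.36 (3.35 to 13.3). The log2 ratios of NOVA1 to NOVA2 were -1.58 and -2.67, below the other 8 pairs of the family, which ran from -0.93 to 0.22. Scaled to the tag totals they were -0.24 and -1.32, with NOVA2 to NOVA1 ratios of 1.18 (0.599 to 2.49) and 2.50 (1.31 to 5.23), so that the first no longer differs from equality beyond counting error. Their place below the other pairs does not depend on the scaling. Unscaled, both Epha3 intervals overlap that of the Epha4 pair of 22 and 42 tags (1.11 to 3.36), the second only at its edge. Both Epha3 pairs also have NOVA1 counts close to the minimum of 10 tags. Of all 3' UTR pairs, 0.699% had a lower ratio than the second Epha3 pair and 9.88% a lower one than the first. Epha3 also had a NOVA2 3' UTR cluster of 35 tags (chr16:63543612-63543893) with no NOVA1 cluster. The ranges of intron and 3' UTR ratios in the family overlapped only through these Epha3 pairs. The receptor binds ephrin-A ligands and shares its NOVA2 density in introns with Epha5 and Epha7, whose 3' UTR ratios were higher.

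**Figure D3:**
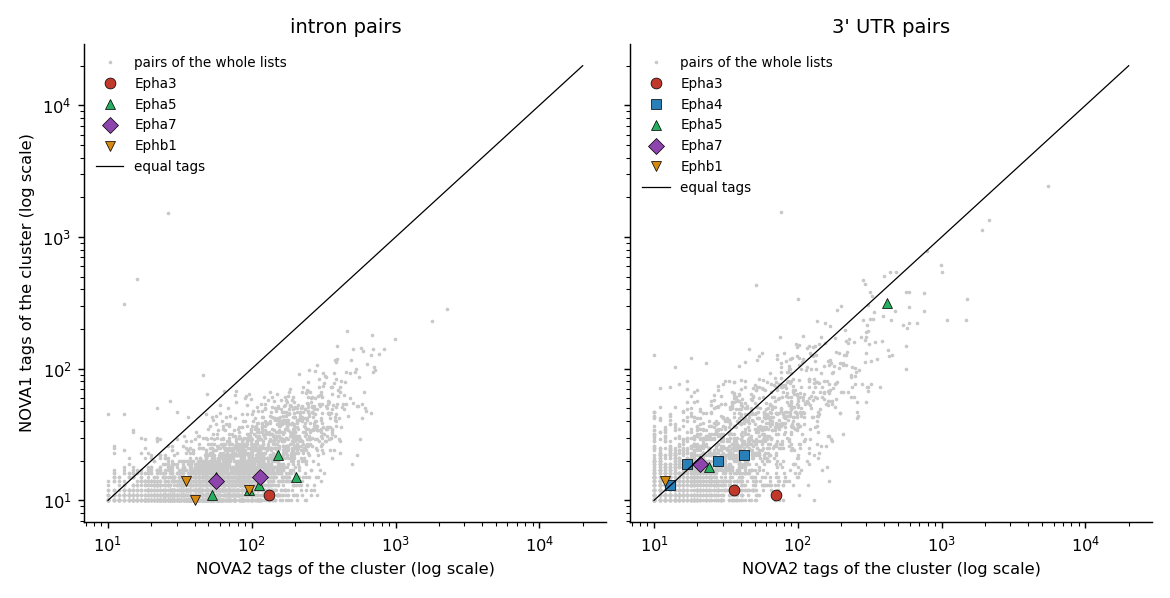
NOVA1 tags (vertical axis) against NOVA2 tags (horizontal axis), both on log scales, at clusters that overlap one to one, in introns (left) and in 3' UTRs (right). Grey points are all pairs of the lists, coloured symbols the receptor pairs, and the line marks equal tags. In these unscaled counts the 12 intron pairs of the receptors lie below the line, most 3' UTR pairs lie near it, and the pairs of Epha3 with 11 and 12 NOVA1 tags lie apart from the others.

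The sites found for one protein alone were mostly NOVA2 intron clusters, 163 of the 166 unshared NOVA2 clusters. Of these the strongest had 197 tags in intron 3 of Epha3 (chr16:63766285-63766475), the site whose sequence opens the lines shown above. Next came 134 tags in intron 12 of Epha5 (chr5:84519444-84519752) and 100 tags in intron 3 of Epha7 (chr4:28755203-28755396). Each had more NOVA2 tags than several of the shared intron sites, whose NOVA2 counts ran from 35 to 202. Unshared NOVA1 clusters numbered 3. They were a cluster of 19 tags in exon 7 of Epha5 (chr5:84579365-84579453), one of 10 tags in coding sequence of the same gene (chr5:84760370-84760468) and one of 12 tags in the 3' UTR of Epha4 (chr1:77365402-77365513). Both coding clusters of the family were thus in Epha5 and found for NOVA1, and coding clusters were 9.79% of the NOVA1 clusters within genes.

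Intron clusters were far from exons. The median distance of a NOVA2 intron cluster of the receptors from the nearest exon was 13.7 kb, beside 9.72 kb in the whole list. Only 8 of 175 (4.57%, 2.33 to 8.76) lay within 500 nt of an exon, beside 9.93% of all NOVA2 intron clusters. Of these, 6 were in Epha5 and 2 in Ephb1. Without Epha5 the share was 2 of 120 (1.67%, 0.458 to 5.87). For NOVA1 it was 1 of 12 (8.33%, 1.49 to 35.4), again in Epha5, beside 12% of all NOVA1 intron clusters.

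Intron 3 carried the most NOVA2 clusters. It makes up 29.0% of the intron length of the 8 genes and held 80 of the 175 NOVA2 intron clusters (45.7%, 38.5 to 53.1), or 10.9 per 100 kb. Among introns of 25 kb or longer, intron 3 held 11 per 100 kb in 7 receptors, and the 22 other introns together 4.55. Introns numbered 15 and 9, far shorter at 47.5 and 44.7 kb over the family, were denser, with 8 and 6 clusters or 16.8 and 13.4 per 100 kb. These are pooled by number alone, and later numbers do not mark the same intron in each gene. Intron 15 lies before an exon of 194 nt in Epha5 and after one of 194 nt in Epha3. Epha3 had 23 of its 38 NOVA2 intron clusters in intron 3 (60.5%, with 37.9% of its intron length) and Ephb1 18 of 30 (60%, with 29.9%). Epha6 had 12 of 26 (46.2%, with 21.5%) and Epha5 21 of 55 (38.2%, with 26.4%). In Epha7 it held 5 of 18 (27.8%, with 33.1%), in Epha4 1 of 4 and in Ephb2 none of 4, so the excess over length was seen in 4 of 7 receptors. In Epha7 the densest long intron was intron 5, with 10 clusters in 63.7 kb. Leaving out 1 receptor at a time, the share in intron 3 stayed between 41.6% and 49.2%. Intron 3 is singled out for its count in these same clusters, so neither this range nor the interval allows for that choice. The same intron of other long genes was not counted. Introns numbered 10 and 11, again pooled by number alone and 57.1 and 101 kb over the family, held no cluster of either protein.

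**Figure D4:**
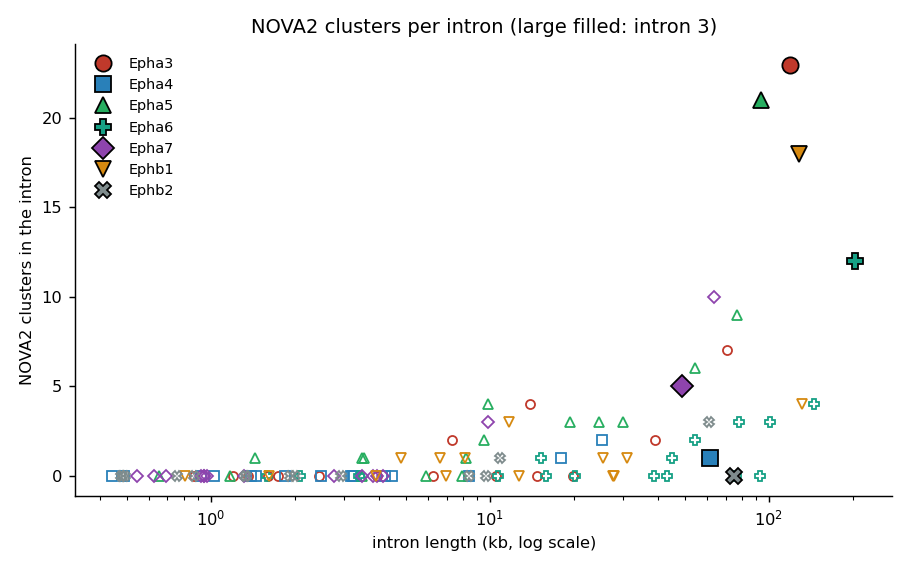
NOVA2 clusters in each intron (vertical axis) against intron length in kb (horizontal axis, log scale) for the 7 receptors with clusters. Large filled symbols are intron 3, small open symbols the other introns. Intron 3 of Epha3, Epha5, Ephb1 and Epha6 holds 23, 21, 18 and 12 clusters, and intron 3 of Ephb2, of 74.8 kb, holds 0.

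Along the genes, the NOVA2 clusters of Epha6 lay toward the start. Of its 26 NOVA2 clusters 23 (88.5%, 71.0 to 96.0) lay in the first 50% of the span, and the last lay 626 kb from the start of the 952 kb gene. Over the 8 receptors 98 of 175 (56.0%, 48.6 to 63.1) lay in the first 50%, and in all 1548 genes of 100 kb or longer with NOVA2 intron clusters 59.7% of clusters did. In Epha3, Epha5, Epha7 and Ephb1 the counts were 18 of 38, 30 of 55, 7 of 18 and 16 of 30. In the receptors with few clusters they were 3 of 4 in Ephb2 (75%, 30.1 to 95.4) and 1 of 4 in Epha4. This position measure was chosen after the maps had been seen.

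The clusters nearest to exons that the annotation shows as skipped in some transcripts were those of Epha5 and Ephb1. Exon 9 of Epha5 (chr5:84546586-84546651, 66 nt) is present in 4 coding transcripts and skipped in 4. Downstream of it, in intron 9, lay a NOVA2 cluster of 153 tags, 254 nt from the exon (chr5:84546092-84546331), and inside this a NOVA1 cluster of 22 tags, 328 nt from it. These were the strongest NOVA1 intron cluster of the family and the fourth strongest NOVA2 cluster. The NOVA2 cluster held 10 YCAY, and the 30 nt with most of them, with YCAY in capitals, read as follows on the minus strand.
Epha5 downstream of exon 9, chr5:84546230-84546259: CCATtcagtaaaatCCATaTCACgcatgga
Also in Epha5, NOVA2 clusters of 15 and 11 tags lay 359 nt downstream of exon 16 and 434 nt downstream of exon 13. In Ephb1 a NOVA2 cluster of 45 tags lay 494 nt upstream of exon 10 (chr9:101886412-101886534, 123 nt). It has 7 YCAY, with 4 in the window shown.
Ephb1 upstream of exon 10, chr9:101887133-101887162: CCATttttcttTCATtCCACcCCATttttc
The other annotated cassette exons of Epha5, exons 4, 5, 12, 14, 15 and 17, had no cluster of either protein within 500 nt. No cluster lay within 500 nt of exon 14 of Epha4, where the nearest was 7140 nt away for NOVA2 and 11490 nt for NOVA1, nor of an annotated cassette exon of Epha7. The lists give positions only, and whether any of these exons changed with NOVA1 or NOVA2 was not measured in them. The study reports that splicing of an Epha5 exon changed in the cortex of mice without NOVA2, but not of mice without NOVA1. Exon 9 of Epha5 as numbered here is exon 7 or 8 in some other transcripts. Whether it is the exon of the study was not tested. Exon 7 as numbered here, of 160 nt, is a different exon from exon 9.

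The strongest cluster of the family in both lists lay near the 3' end of Epha5, with 313 NOVA1 tags (chr5:84494543-84495236) and 415 NOVA2 tags (chr5:84494552-84495133). By tags these were number 68 of the NOVA1 list and number 155 of the NOVA2 list. The next NOVA1 clusters of the family had 22 tags each, in intron 9 of Epha5 and in the 3' UTR of Epha4 (chr1:77363963-77364057). The site lies at the end of a proximal last exon (chr5:84494537-84496540, 2004 nt), which extends exon 17 into what other transcripts splice out. It is exonic in 4 of the 8 coding transcripts, intronic in 3 and outside 1. In 1 of the 4, 121 nt of the site are coding sequence, and the midpoint of the NOVA1 cluster lies there. The distal last exon (chr5:84486816-84488172, 1357 nt) ends the longer transcripts and carried 18 NOVA1 and 24 NOVA2 tags at its end. The unscaled ratio of tags was the same at both ends, 1.33 NOVA2 tags per NOVA1 tag (1.14 to 1.54 proximal, 0.694 to 2.61 distal), close to the median 3' UTR pair of all genes.

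**Figure D5:**
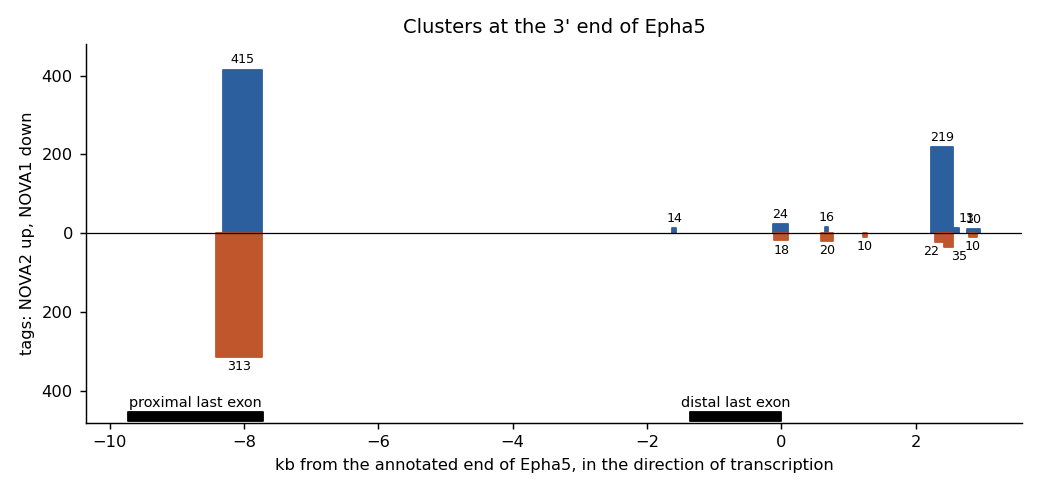
Clusters at the 3' end of Epha5, with position in kb from the annotated end of the gene (horizontal axis) and tags (vertical axis, NOVA2 upward in blue, NOVA1 downward in red). The number at each bar is its tag count, and black bars are the proximal and distal last exons. The clusters of 415 and 313 tags lie at the end of the proximal last exon, and those of 24 and 18 tags at the end of the distal one.

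YCAY was denser in receptor clusters than in their flanks for both proteins. Its starts were counted on the strand of the gene, overlaps included, and set against flanks 200 to 500 nt from either end. In NOVA2 clusters of the receptors there were 41.9 starts per 1000 positions against 18.2 in flanks, a fold of 2.30 (2.13 to 2.49), beside 2.29 in the whole list. In NOVA1 clusters there were 42.1 against 16.3, a fold of 2.58 (2.08 to 3.20), beside 2.02 in the whole list, just below that interval. Of the NOVA2 clusters 2 of 188 held no YCAY, and of the 25 NOVA1 clusters none. By receptor the NOVA2 fold ran from 1.77 in Epha4 (1.18 to 2.58) and 1.96 in Epha3 (1.65 to 2.32) through 2.57 in Epha5 (2.22 to 2.96) to 3.91 in Ephb2 (2.20 to 6.78, 4 clusters). The intervals of Epha3 and Epha5 overlap. The NOVA2 intron sites shared with NOVA1 had a fold of 3.19 (2.45 to 4.16), and the unshared ones 2.25 (2.07 to 2.45), beside 2.60 and 2.36 in the whole list. In 3' UTRs the fold was 2 (1.42 to 2.78) for NOVA1 and 1.93 (1.40 to 2.66) for NOVA2, beside 1.54 and 1.71 in the whole lists. For NOVA1 in introns it was 3.61 (2.66 to 4.85), beside 2.81. Within introns and within 3' UTRs the whole-list NOVA1 fold thus lay inside the interval of the receptors. Over the 188 NOVA2 clusters, tags had a Spearman correlation of -0.01 with YCAY density and 0.56 with width, both within 1 list and so with shared depth.

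Other families of guidance receptors were compared without a test. In the netrin receptors 93.5% of 186 NOVA2 clusters were intronic and 17.7% shared, and in the Robo and Slit genes 89.9% of 129 and 20.2%. The intron share of the Eph receptors, 93.1%, has an interval that holds 93.5% and 89.9%. For their shared share of 11.7% the interval was 7.86 to 17.1, just below 17.7% and 20.2%. The intervals of those shares, 12.9 to 23.9 for netrin receptors and 14.1 to 27.9 for Robo and Slit, overlap it, so the counts do not separate the families. Plexins and neuropilins, receptors of the semaphorins, had 79.2% of 72 NOVA2 clusters in introns, and of their 43 NOVA1 clusters 11.6% were intronic and 34.9% shared.

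Of the ligands, 3 of 8 ephrins held clusters of both proteins, Efna5, Efnb2 and Efnb3. All ephrins but Efna5 are shorter than 50 kb, and 13.2% of such protein-coding genes held a NOVA2 and 7.33% a NOVA1 cluster. Efna5, which binds EphA receptors and spans 277 kb, held 11 NOVA2 clusters with 281 tags and 2 NOVA1 clusters with 23 tags, all intronic. Efnb2, a ligand of EphB receptors and of Epha4, held its strongest cluster in coding sequence, with 209 NOVA1 tags (chr8:8620680-8620935) and 201 NOVA2 tags (chr8:8620703-8620929). Efnb3 held 3 NOVA1 clusters and 1 NOVA2 cluster, all in the 3' UTR, the highest with 24 tags for NOVA1 and 39 for NOVA2 at different sites. The other 5 ephrins held none. Of 33 genes listed as acting below or beside Eph receptors, 27 held a NOVA2 cluster and 15 a NOVA1 cluster. Of the 18 that span 100 kb or more, 16 (88.9%) held a NOVA2 and 9 (50%) a NOVA1 cluster, beside the 66.6% and 40.9% of all such genes given above. The most NOVA2 clusters were in Anks1b, an adaptor related to a known partner of Eph receptors, with 74 NOVA2 and 10 NOVA1 clusters. Grip1, a PDZ scaffold that binds EphB receptors and ephrin-B ligands, held 48 and 14, the most for NOVA1. Kalrn, a guanine nucleotide exchange factor that acts on dendritic spines below EphB receptors, held 35 and 8.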

How the data were processed

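The study's CLIP reads had been aligned to the mouse genome mm9 with Novoalign, and PCR duplicates removed to give unique tags. The authors kept clusters with tags in at least 2 of 3 libraries, and the deposited count per cluster, at least 10, is pooled over the libraries and not normalised. It may be a number of tags or a peak height, which the study names for its threshold, and sums of it would then be sums of heights. Library depth cannot be read from clusters alone. The unique tag totals given by the study, higher for NOVA2, were used to scale tags in an alternative chosen after seeing the data. These totals were counted after removal of duplicates and are not numbers of reads sequenced. The tissue label could not be checked against marker genes, since the lists hold no expression values.

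Clusters were classed by the GENCODE vM1 annotation covering most of their nucleotides on their strand (coding sequence before 3' UTR, 5' UTR, noncoding exon and intron). Exon and intron numbers are those of the transcript with the longest coding sequence. Further copies were BLAST+ 2.17.0 matches of at least 90% identity over at least 50% of a cluster. Python 3.11.15, pandas 2.3.3, SciPy 1.17.1 and pysam 0.24.0 were used. On simulated data all 804 planted overlaps and all 1089 planted YCAY were recovered, and the interval of a tag ratio held the true value in 961 of 1000 draws. The receptors, the ligand, signalling and comparison lists and the clusters to describe singly were chosen with earlier results of these data known. Singly described were the highest cluster per receptor and list, the 5 highest and 3 highest unshared per list, those within 500 nt of an annotated cassette exon and the pairs of extreme ratio.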

Additional observations from a re-analysis of the deposited data

How the results depend on the processing

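Of 64 recomputed values for 12 results, 54 stayed within the counting interval of the value given and 10 did not. The share of receptor clusters found in both lists depended on the tag minimum. With at least 20 tags in both lists it was 100% of 4 NOVA1 clusters and 5.19% of 77 NOVA2 clusters (whole lists 80.7% and 18.3%). With NOVA2 at 25 tags or more it was 68.0% and 28.8% (whole lists 60.8% and 44.4%). Keeping only as many NOVA2 clusters as NOVA1 has, the highest by tags (31 or more), it was 64.0% and 32.7% (54.6% and 52.0%). At 20 tags the NOVA1 intron share was 25% and the 3' UTR share 75%, on 4 clusters, and without Epha5 they were 40% and 60%, so their order (48% and 44% with all receptors) turns under both. Without Epha5, an alternative chosen after seeing the data, the share of intron clusters within 500 nt of an exon was 0 of 6 for NOVA1 (0%, upper bound 39.0%) and 1.67% for NOVA2. Midpoint classes, coding transcripts alone, an overlap of 50%, wider flanks, downstream clusters added to the 3' UTR and clusters with further copies left out moved no value beyond its interval. Shares of tags by class were not recomputed. The fold of YCAY with each receptor left out ran from 2.36 to 2.77 for NOVA1 and from 2.21 to 2.41 for NOVA2. No paired analysis was possible because the tags of the 3 libraries are pooled, and for the same reason no library could be left out. A fixed minimum of 10 tags admits weaker sites in the protein with more unique tags. The absence of a NOVA1 cluster at a NOVA2 site is not absence of binding.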

Other observations

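Past the annotated ends of the receptors, outside the span used above, clusters were found for Epha5 and Epha6 and for none of the other 6 receptors within 10 kb. Epha5 had 5 NOVA1 clusters with 97 tags and 4 NOVA2 clusters with 258 tags. The strongest, with 219 NOVA2 tags (chr5:84484259-84484585), began 2230 nt past the end of the distal last exon. Against it lay NOVA1 clusters of 35 and 22 tags. With 219 tags it was higher than any NOVA2 cluster within the gene but the one of 415 tags, whereas the NOVA2 cluster at the end of the distal last exon itself had 24. Epha6, which had no NOVA1 cluster within its span, had 4 NOVA1 clusters with 50 tags and 4 NOVA2 clusters with 66 tags past its end, with the farthest NOVA1 cluster 7359 nt from it. Whether these lie on longer transcripts of the receptors cannot be read from the lists.

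On the strand opposite the receptors no cluster of either protein lay within any of the 8 spans. Repeated sequence touched few of the sites: 2 of the 25 NOVA1 and 5 of the 188 NOVA2 clusters had a further copy in the genome, up to 30 and 75 copies.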
